A study of Gallus gallus with 12 samples.

Results

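LHX1-type horizontal cells of the chick retina were studied at embryonic day 18 (E18). They were chosen from raw transcript counts in single cells: at least 1 unique molecular identifier (UMI, 1 captured transcript) of LHX1, none of ISL1, at least 2 of ONECUT1, ONECUT2 and ONECUT3 together, and none of POU4F1, POU4F2 and POU4F3. The rule found 890 cells among the 30022 barcodes of the E18 libraries, out of 95805 barcodes in the series. Replicates 1 to 4 held 222, 212, 227 and 229 of them. They were compared with cells of the same ONECUT gate that had ISL1 and no LHX1, called here the ISL1 gate, of which there were 2047.

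Horizontal cells are inhibitory interneurons of the outer retina. They contact photoreceptor terminals, receive glutamate from them and feed signals back sideways, through gap junctions and a GABA-related output. In the chick, LHX1 marks the axon-bearing horizontal cells and ISL1 marks the axonless ones, both LIM-homeodomain transcription factors. ONECUT1 and PROX1 are transcription factors shared by horizontal cells of both kinds, and the POU4F factors mark retinal ganglion cells.

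The series held 12 droplet-based 3′ single-cell libraries of Gallus gallus retina, made to catalogue its cell types. The E18 group and the E12 group (embryonic day 12) each had 4 libraries of whole retina, with no treatment named in the labels, from specific pathogen free eggs, with the pigment epithelium and pecten removed before papain dissociation. A further 4 libraries held E16 cells enriched for ganglion cells with a Thy-1 antibody. Their titles and stage field give E16, but their description field gives E18. Whether each library was made from its own embryos is not given by the labels, so the p-values below measure the spread between libraries, which may be technical.

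The E18 libraries held 7259 to 7683 barcodes each, with totals of 16436527 to 16967777 UMIs and medians of 1617 to 1681 UMIs per barcode. Between 62 and 85 barcode sequences were shared by a pair of E18 libraries, none with an equal UMI total and none between 2 LHX1-type cells. Of 49 genes that RefSeq (GRCg7b) places on chromosome W or that are named HINTW, the chromosome of females in birds, 18 had at least 10 UMIs at E12 and 3 at E18. Their summed level was 629 to 671 CPM, UMIs scaled to one common library total, in the E12 libraries and 55.4 to 59.3 CPM in the E18 libraries. Stage and the level of these genes, and any other difference between the 2 sets of embryos, cannot be told apart in these data.

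The 8 genes of the rule gave the following levels, which describe the choice and were not tested. CPM was computed from the summed UMIs of the chosen cells of each library. LHX1 stood at 1169, 1169, 1154 and 1345 CPM in the LHX1-type cells of replicates 1 to 4. ONECUT1 was at 1798 ± 222 CPM (SD, n = 4 libraries), ONECUT2 at 2300.2 ± 64.8 CPM and ONECUT3 at 979.6 ± 46.6 CPM. The ISL1 gate, which also held cells of bipolar-marked clusters, had these 3 at 1017 ± 147 CPM, 1379 ± 46.5 CPM and 527 ± 35 CPM, and ISL1 itself at 2789.6 ± 65.2 CPM. Within horizontal cell-like clusters, described below, ONECUT1 was at 1853 ± 231 CPM in LHX1-type cells and 2205 ± 251 CPM in the ISL1 gate, ONECUT2 at 2391 ± 54.0 and 1703 ± 77.2 CPM, and ONECUT3 at 1019 ± 27.5 and 1187 ± 68.8 CPM. The order of the gates for ONECUT1 and ONECUT3 was thus the other way round there, with overlapping libraries for ONECUT1.

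PROX1, which the rule did not use, was present in both gates. It measured 1681, 1748, 1610.4 and 1893 CPM in the LHX1-type cells of the 4 libraries and 1909, 2040.5, 1990.3 and 1784 CPM in the ISL1 gate. The ranges overlapped, and the difference did not pass the test (log2 difference -0.02, SE 0.05, adjusted p = 0.787, edgeR quasi-likelihood test with Benjamini-Hochberg adjustment, n = 4 libraries). Within horizontal cell-like clusters, which were named in part for their PROX1 level, PROX1 was at 1802 CPM in LHX1-type cells and 3043 CPM in the ISL1 gate. In cells without VSX1 or OTX2 the log2 difference was -0.64, short of 2-fold. Of other markers listed for horizontal cells, PTF1A, a factor of the early horizontal and amacrine lineage, had no UMI in the LHX1-type cells at E18. SLC32A1, the vesicular transporter of GABA and glycine, was at 70.9 ± 19.9 CPM.

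Cells just inside and just outside the rule were described without a test. The 285 members with a single LHX1 UMI had IPCEF1 at 1356 CPM and TNR at 3165 CPM, and the 605 with more had 1253 and 3011 CPM. Members with exactly 2 ONECUT UMIs numbered 13. The 39 cells that failed for having 1 ONECUT UMI had TNR at 877 CPM, and 30.8% of them lay in the cluster that held most members. A further 56 cells failed for a single ISL1 UMI beside LHX1, and 87.5% of these lay in that cluster. The gate also held 1021 cells with neither factor, 159 of them in the same cluster, with IPCEF1 at 1656 CPM, TNR at 3590 CPM and GAD1 at 2704 CPM. The levels of these 3 genes in the 159 cells were above those of the members, cells in which LHX1 was not detected at a median of 1455 UMIs.

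When all 30022 barcodes were clustered on their expression, a single cluster, led by IPCEF1, LHX1 and TNR, held 855 of the 890 members (96.1%). The next, led by PDE6G, held 14. Clustering used 2000 variable genes, chosen without leaving out those of the rule, so this is a description. Barcodes scored as doublets made up 6.63% of the members and 16.9% of the ISL1 gate.

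The ISL1 gate was mixed. Only 911 of its 2047 cells (44.5%) lay in horizontal cell-like clusters, while 1014 (49.5%) lay in clusters marked by at least 4 bipolar cell genes. Of the 911, 879 lay in the cluster led by HMX2 and 32 in the cluster led by IPCEF1, LHX1 and TNR. The 7 bipolar markers summed to 2846 to 3179 CPM in the ISL1 gate and to 215 to 308 CPM in the LHX1-type cells. Values from 2 restricted sets of cells are therefore given beside results between the gates, the second chosen after the mixture was seen. The first keeps cells of horizontal cell-like clusters and is a description of levels. Such clusters had at least 3 horizontal cell markers, ONECUT1 and PROX1 among them, each at 50 CPM or more and at least 2-fold its median over clusters. LHX1, ISL1, ONECUT2 and ONECUT3 also counted as markers. These markers had to outnumber those of any other cell type, with no marker of another type among the 10 leading genes. The second keeps cells with no UMI of the bipolar cell factors VSX1 and OTX2, which left 760 LHX1-type cells and 784 cells of the ISL1 gate, of which 97.6% and 91.3% lay in horizontal cell-like clusters. In that set the 7 bipolar markers still summed to 213 to 309.9 CPM in the ISL1 gate and to 61.0 to 96.7 CPM in the LHX1-type cells.

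**Figure D1:**
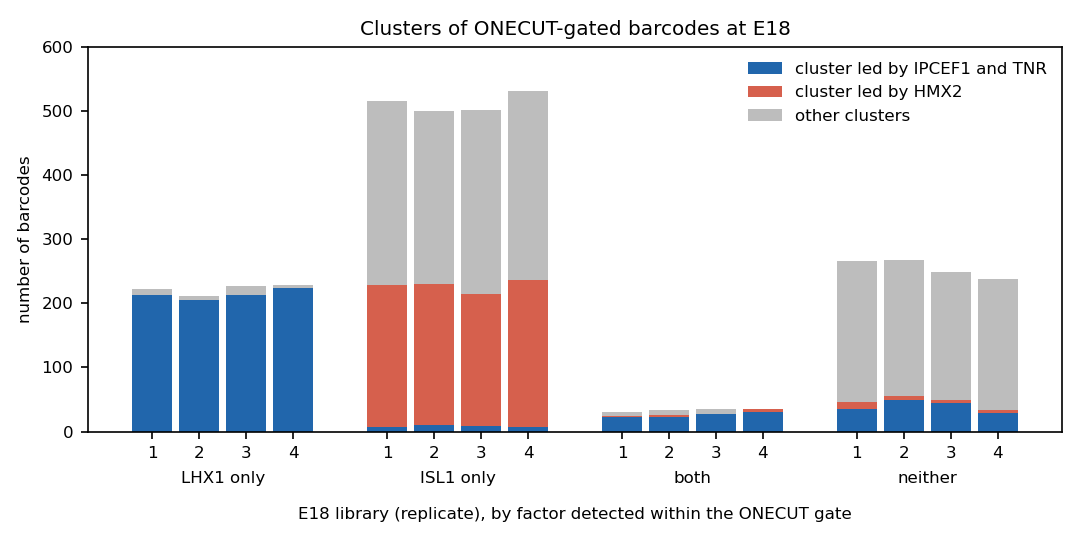
Number of ONECUT-gated barcodes in each E18 library (bars, replicates 1 to 4), by which factor was detected, with colours for the cluster they fell in. LHX1-only cells lay almost wholly in the cluster led by IPCEF1 and TNR, 855 of 890, whereas 911 of the 2047 ISL1-only cells lay in either horizontal cell-like cluster.

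Against the ISL1 gate, the LHX1-type cells had higher levels of the matrix gene TNR, the growth factor receptor gene RET and the GABA synthesis gene GAD1, and lower levels of the homeobox genes HMX2 and HMX3. Of 8070 genes tested, 681 were at least 2-fold higher in the LHX1-type cells (8.44% of genes tested) and 998 at least 2-fold lower (12.4%), at an adjusted p under 0.05 with library as a term, 20.8% in either direction. Libraries of the 2 gates did not overlap for 15.7% of genes on the higher side and 27.5% on the lower. In cells without VSX1 or OTX2, 5676 genes were tested, 450 were higher (7.93%) and 420 lower (7.4%). Of the 681 higher genes 556 were tested there, and 354 were called again in the same direction. Of the 998 lower genes 431 were tested there, and 283 were called again. In the sentences that follow, the 4 values are those of replicates 1 to 4 in CPM, and an SD is over those 4 libraries.

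TNR, which encodes tenascin-R, an extracellular matrix glycoprotein of the nervous system, stood at 2828, 3134, 3055 and 3214 CPM in LHX1-type cells and at 90.5, 89.1, 120.1 and 77.3 CPM in the ISL1 gate. Every LHX1-type library was far above every ISL1-gate library (log2 difference 5.15, SE 0.07, adjusted p = 8.33e-26). A TNR UMI was found in 98.0% ± 1.10 of LHX1-type cells, in 8.66% ± 1.83 of the ISL1 gate and in 5.83% ± 0.46 of barcodes outside the ONECUT gate, at median depths of 2022.5, 1725 and 1638 UMIs. IPCEF1, which encodes an interactor of cytohesin exchange factors, stood at 1135, 1405, 1232 and 1369 CPM against 15.6, 19.9, 20 and 28.7 CPM. Its groups did not overlap either (log2 difference 6.05, SE 0.09, adjusted p = 6.48e-25). Its level in the ISL1 gate within horizontal cell-like clusters was 24.9 to 62.7 CPM. That set included 32 cells of the cluster led by IPCEF1, LHX1 and TNR. Over all barcodes of the cluster led by HMX2, IPCEF1 was at 5.51 CPM and TNR at 74.7 CPM.

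RET, the receptor tyrosine kinase for GDNF-family ligands, measured 274, 254, 302 and 309 CPM in LHX1-type cells. In the ISL1 gate it measured 4.16, 4.19, 6.01 and 0.991 CPM, without overlap (log2 difference 6.29, SE 0.20, adjusted p = 1.86e-18). C1QL4, a secreted C1q-like protein of a family that acts at synapses, measured 424, 457, 419 and 433 CPM against 15.6, 8.39, 5.01 and 5.95 CPM (log2 difference 5.75, SE 0.16, adjusted p = 1.75e-19). SLC17A6, the vesicular glutamate transporter best known from ganglion cells in the retina, measured 121, 146, 114 and 165 CPM against 1.04, 6.29, 2 and 3.96 CPM (log2 difference 5.43, SE 0.25, adjusted p = 3.81e-15). The other 9 ganglion cell markers outside the rule, all with at least 1 UMI, summed to 61.2 to 110.2 CPM in LHX1-type cells and 122 to 176 CPM in the ISL1 gate, lower in LHX1-type cells. Their part in the SLC17A6 result was not tested.

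FBLN5, an elastic fibre protein, had 109 UMIs in LHX1-type cells and 1 UMI in the ISL1 gate, a ratio of 224.9 with a 95% counting interval of 39.5 to 8964. The other named genes with higher levels were MEGF11 at 367 ± 35.2 CPM against 9.17 ± 2.88 CPM, the lipid droplet protein gene PLIN4 at 516 ± 45.6 CPM against 14.5 ± 3.16 CPM, and the inward rectifier potassium channel gene KCNJ5 at 134 ± 20.7 CPM against 3.84 ± 1.3 CPM. The secreted protease gene ADAMTS17 was at 230.2 ± 34.5 CPM against 6.89 ± 1.57 CPM. RPESL was at 52.2 ± 9.87 CPM against 1.53 ± 1.34 CPM, and PLEKHG4 at 97.6 ± 13.2 CPM against 3.05 ± 0.772 CPM. All 12 had log2 differences of at least 5.05, and each was called higher in cells without VSX1 or OTX2 as well, with log2 differences from 4.14 (PLEKHG4) to 7.55 (FBLN5). PLEKHG4 was highest in a cluster led by SLC10A4 and ZAR1, at 191 CPM over all its barcodes, and the cluster holding the members ranked 3 of 66. For the other 11 the cluster holding the members ranked first, for some narrowly. SLC17A6 was at 136 CPM there and 129 CPM in a cluster led by POU4F1 and RBPMS2, where KCNJ5 was at 91.8 CPM against 134 CPM. C1QL4 was at 439 CPM, and at 367 CPM in a cluster led by PVALB and C1QL2. For the rest the next cluster lay further below, for TNR at 1343 CPM against 3238 CPM.

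At the other end of the comparison, LHX1-type cells lacked genes that led the ISL1 cluster. HMX2, an NK-family homeobox factor, had no UMI in any of the 4 LHX1-type sums and stood at 499, 494, 423 and 483 CPM in the ISL1 gate. It was at least 301-fold lower, taking 3 counts over the 4 libraries as the limit for a count of 0. Its paralogue HMX3 was also without a UMI, and was at 84.5 ± 18.7 CPM in the ISL1 gate (at least 53.5-fold lower). FBLN1, a basement membrane protein, was without a UMI and at 78.4 ± 5.68 CPM in the ISL1 gate (at least 49.6-fold lower). An HMX2 UMI was found in 0 of 890 LHX1-type cells and in 33.7% ± 0.91 of the ISL1 gate, where HMX3 was found in 13.3% ± 2.86 and FBLN1 in 13.1% ± 0.86. Most single cells of the mixed ISL1 gate thus also lacked a UMI of each gene. Within its horizontal cell-like clusters HMX2 was found in 72.7% of cells, HMX3 in 27.6% and FBLN1 in 23.4%. Their levels there were 1109, 189 and 153 CPM, and 1078, 178 and 150 CPM in ISL1-gate cells without VSX1 or OTX2. The library sums of the gates were fully apart for all 3 genes, which the rule for naming genes required.

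ISLR2, an immunoglobulin and leucine-rich repeat membrane protein, was at 13.1 ± 5.26 CPM against 685 ± 72.9 CPM (log2 difference -5.55, SE 0.13, adjusted p = 1.65e-20). Other named genes with lower levels in LHX1-type cells were DCLK3, CPNE8, KCNJ4, DPP4, STRA6, HPRTL and CALB1. DCLK3, a doublecortin-like kinase gene, was at 3.79 ± 4.86 CPM against 356 ± 36.6 CPM, and CPNE8, a copine gene, at 2.64 ± 3.22 CPM against 206 ± 17 CPM. DPP4, a membrane peptidase, was at 4.16 ± 2.9 CPM against 197 ± 6.7 CPM. KCNJ4, an inward rectifier, had 1 UMI in LHX1-type cells against 499, a ratio of 242 with an interval of 43.2 to 9571. Levels of DCLK3, CPNE8, DPP4 and KCNJ4 in the ISL1 gate were higher, not lower, within horizontal cell-like clusters, at 811 CPM, 466 CPM, 355 CPM and 297 CPM.

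HPRTL and CALB1 were lower within the horizontal cell-like clusters of the ISL1 gate than in the whole gate. HPRTL was at 140.0 ± 5.44 CPM in the whole ISL1 gate and at 26.2 CPM within horizontal cell-like clusters. CALB1, the calcium buffer calbindin, was at 102 ± 16.5 CPM in the whole gate and at 25.3 CPM within those clusters, and neither gene had enough counts to be tested in cells without VSX1 or OTX2. In LHX1-type cells HPRTL had 2 UMIs and CALB1 had 3. STRA6, a retinol transporter gene, was at 57.1 ± 14.8 CPM in the gate and at 54.9 CPM within the clusters, against 1 UMI in LHX1-type cells.

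**Figure D2:**
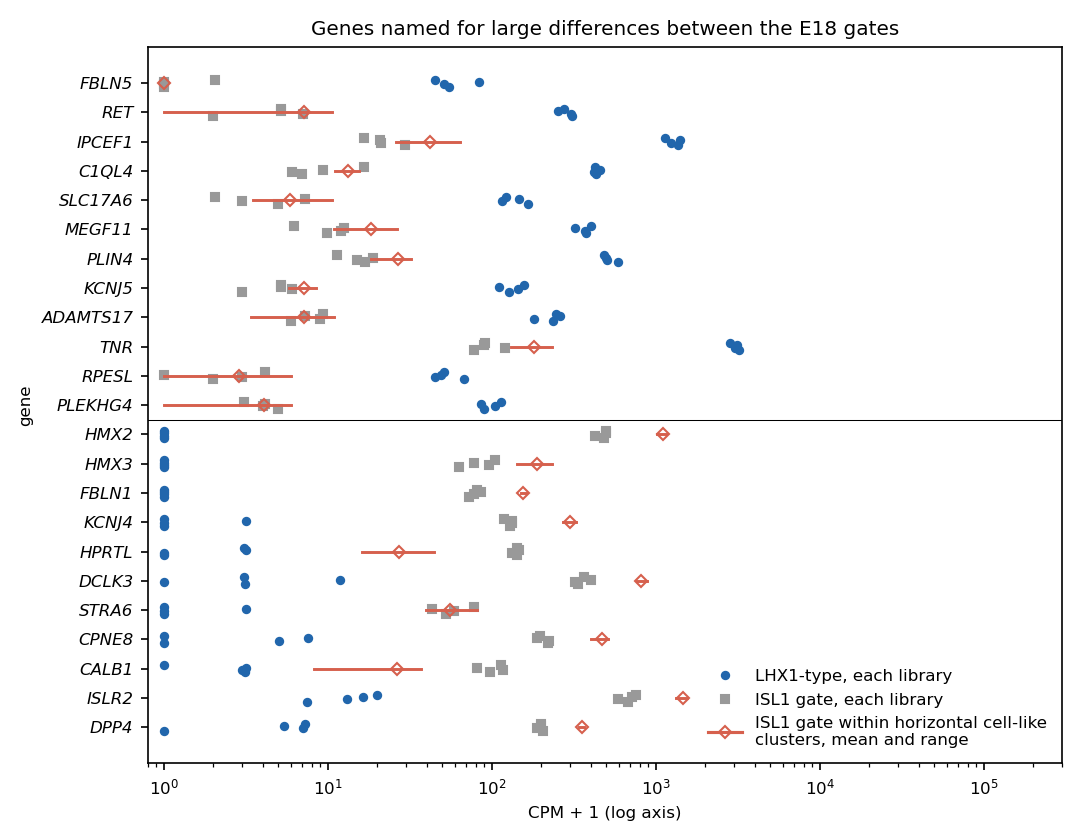
Level of 23 genes named for large differences, as CPM + 1 on a log axis, in the LHX1-type cells (circles) and the ISL1 gate (squares) of each E18 library, with the mean and range over libraries of ISL1-gate cells from horizontal cell-like clusters (diamonds and lines). Circles and squares do not overlap for any gene, which the rule for naming genes required, and the diamonds of HPRTL (26.2 CPM) and CALB1 (25.3 CPM) lie left of their squares.

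GAD1, the enzyme that makes GABA from glutamate, measured 1965, 2159, 2099 and 2184 CPM in LHX1-type cells and 86.3, 118, 90.1 and 104 CPM in the ISL1 gate. The groups were widely separated (log2 difference 4.54, SE 0.06, adjusted p = 9.46e-26). Within horizontal cell-like clusters the ISL1 gate was at 119.6 to 202 CPM, with 32 cells of the cluster led by IPCEF1, LHX1 and TNR included. Of 17 tested genes of GABA and glycine transmission, GAD1 and the glycine receptor subunit gene GLRB were higher in LHX1-type cells and 7 were lower, among them the rho-type GABA receptor genes GABRR3, GABRR1 and GABRR2. The median log2 difference of the list was -0.58 against -0.01 over all genes tested. Of all genes tested, 8.44% were higher and 12.4% lower, and 7.93% and 7.4% in cells without VSX1 or OTX2. The counts of this list and those below stand beside these shares, and several are near them. In cells without VSX1 or OTX2, 11 were tested, GAD1 and GLRA3 were higher, and the lower genes included GABRR2. GABRR3 and GABRR1 were not tested there.

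Of 24 genes for glutamate receptors and their partners, 6 were higher and 8 lower (median -0.30). Scaled by library totals alone, 3 were higher and 8 lower, and in cells without VSX1 or OTX2 3 of 15 were higher and 2 lower (median -0.10). GRIN1, the obligatory subunit of NMDA receptors, was at 633 ± 18.2 CPM against 250.4 ± 19.1 CPM (log2 difference 1.48, SE 0.07, adjusted p = 3.32e-15), and GRIN2C, an NMDA receptor partner subunit, at 106 ± 11.5 CPM against 29.3 ± 2.46 CPM (log2 difference 1.99, SE 0.16, adjusted p = 1.81e-10). Both were further apart in cells without VSX1 or OTX2, at log2 differences of 2.11 and 4.29. GRIA3, an AMPA receptor subunit, was called higher over the whole gates (log2 difference 1.04) but had a log2 difference of -0.10 without VSX1 or OTX2 and was not called there.

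Gap junction genes were few. Of 5 connexin and pannexin genes tested, 2 were higher, GJC1 among them, and GJD2, a neuronal connexin, was lower. GJC1 alone was tested without VSX1 or OTX2, and was higher. GJC1 measured 48.1, 65.6, 54.1 and 68.7 CPM in LHX1-type cells and 12.5, 11.5, 16 and 21.8 CPM in the ISL1 gate (log2 difference 2.06, SE 0.22, adjusted p = 3.6e-08). Among 15 calcium-binding protein genes, CALB2 and NCS1 were higher and 5 were lower. Without VSX1 or OTX2, CALB2 and VSNL1 were higher and HPCA and HPCAL1 lower of 11, and NCS1 was not called. CALB2, calretinin, was at 4323, 4716, 4366 and 4680.0 CPM against 424, 413, 516 and 349.8 CPM (log2 difference 3.55, SE 0.06, adjusted p = 3.13e-23). CHGA, which encodes the secretory granule protein chromogranin A and is on no list, was at 6692 ± 477 CPM against 511 ± 30.4 CPM (log2 difference 3.85, SE 0.05, adjusted p = 5.04e-26). It was named after its values were seen.

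Few neuropeptide and receptor genes had enough counts to be tested between the gates, 11 of the 52 present in the data. Of these 11, 7 were higher in LHX1-type cells and 4 lower, with a median log2 difference of 2.92. The counts and the median describe the tested genes only, each of which was called, and not the list as a whole. OXT, the avian oxytocin-type peptide precursor, measured 393, 468, 445 and 469.9 CPM against 39.5, 33.6, 42 and 27.7 CPM (log2 difference 3.77, SE 0.12, adjusted p = 1.62e-18). OPRM1, the mu-opioid receptor, was at 178 ± 14.2 CPM against 9.73 ± 3.37 CPM, ADCYAP1, the precursor of the peptide PACAP, at 247 ± 24.2 CPM against 31.5 ± 9.26 CPM, and TAC3, a tachykinin precursor, at 117 ± 18.1 CPM against 16.9 ± 4.62 CPM. PCP4, listed here but known as a calmodulin-binding protein, was at 1975 ± 116 CPM against 254 ± 67 CPM. The 4 lower genes were NMU, NMB, PENK and CCK. Of 8 tested without VSX1 or OTX2, 6 were higher and CCK was lower, and PENK, at 173 ± 45 CPM in the whole ISL1 gate, was at 53.1 CPM within horizontal cell-like clusters.

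Trophic factor genes split between the gates. Of 18 tested ligands and receptors, 10 were higher in LHX1-type cells and 6 lower, with a median log2 difference of 1.41, and without VSX1 or OTX2 7 of 14 were higher and 3 lower. FGFR3, a fibroblast growth factor receptor, measured 610.4, 553, 519 and 524 CPM in LHX1-type cells and 13.5, 32.5, 20 and 13.9 CPM in the ISL1 gate (log2 difference 4.92, SE 0.14, adjusted p = 2.29e-19). GFRA1 and GFRA4, the co-receptors through which GDNF-family ligands reach RET, were at 87.5 ± 20.8 CPM against 8.17 ± 1.91 CPM and at 233 ± 45.4 CPM against 25 ± 8.9 CPM. RET, GFRA1 and GFRA4 were thus all higher in the LHX1-type cells, and all 3 were called in cells without VSX1 or OTX2. The lower genes included BDNF, EGFR, NTRK2, NTRK3 and FGFR1, of which EGFR alone was tested without VSX1 or OTX2 and was lower there. EGFR, the epidermal growth factor receptor, was at 5.85 ± 5.46 CPM against 154 ± 25.1 CPM (log2 difference -4.55, SE 0.26, adjusted p = 3.99e-13). BDNF, at 61.1 ± 3.73 CPM in the whole ISL1 gate, was at 12.9 CPM within horizontal cell-like clusters.

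Potassium channel genes were mostly lower in LHX1-type cells, with 3 of 31 higher and 16 lower and a median log2 difference of -1.18. Scaled by library totals alone, 1 was higher and 19 lower. Without VSX1 or OTX2 4 of 19 were higher and 8 lower (median -0.50). The inward rectifier genes KCNJ4, KCNJ6, KCNJ2 and KCNJ12 were lower in both versions. KCNJ2 was at 15.2 ± 3.18 CPM against 90.3 ± 3.51 CPM (log2 difference -2.41, SE 0.21, adjusted p = 8.27e-10). The higher ones were KCNJ5, KCNH5 and KCND2, which encodes an A-type channel subunit at 155 ± 16.1 CPM against 81.6 ± 1.93 CPM.

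Among transcription factors of horizontal and amacrine cells, 5 of 22 were higher and 5 lower, and without VSX1 or OTX2 8 of 19 were higher and 3 lower. BARHL2, a homeobox factor, measured 226, 173, 166 and 154 CPM in LHX1-type cells and 9.36, 8.39, 8.01 and 10.9 CPM in the ISL1 gate (log2 difference 4.40, SE 0.18, adjusted p = 3.53e-16). TFAP2A, an AP-2 factor used in horizontal and amacrine development, was at 727, 826, 787 and 753 CPM against 283, 143, 126 and 159 CPM (log2 difference 2.28, SE 0.12, adjusted p = 8.9e-14), with the highest ISL1-gate value in replicate 1 and no overlap. TFAP2B was present in both, at 1492 ± 63.8 CPM and 923 ± 56.7 CPM over the whole gates, and fell short of the 2-fold threshold. A TFAP2B UMI was found in 90.8% of LHX1-type cells and 48.9% of the ISL1 gate, but in 91.9% of ISL1-gate cells in horizontal cell-like clusters. Over all barcodes, TFAP2B was at 1553 CPM in the cluster of the members and 1786 CPM in the cluster led by HMX2. Of 7 LIM-homeodomain and LMO genes tested, LMO3 and LMO1 were higher and LHX4, LHX9, LDB2 and LHX3 lower. LMO3, a LIM-only cofactor, was at 105 ± 19.2 CPM against 5.88 ± 2.28 CPM. None of the 4 lower genes was tested without VSX1 or OTX2, and LMO4, not called over the whole gates, was higher there (log2 difference 2.34).

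Surface and matrix genes differed in both directions. Of 34 axon guidance genes, 10 were higher and 12 lower over the whole gates, and 9 of 18 were higher and 1 (PLXNB2) lower without VSX1 or OTX2. SEMA6B, a transmembrane semaphorin, measured 487, 455, 441 and 397 CPM against 13.5, 23.1, 15 and 19.8 CPM (log2 difference 4.76, SE 0.13, adjusted p = 1.52e-19). RTN4R, the Nogo receptor, was at 389.6 ± 35.6 CPM against 34.6 ± 6.14 CPM, and EPHA4, an ephrin receptor, at 57.5 ± 9.31 CPM against 7.61 ± 2.81 CPM. TNC, the tenascin relative of TNR, was at 512 ± 31.6 CPM against 31.8 ± 16.8 CPM, and was called higher.

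Of 31 immunoglobulin recognition molecules, 6 were higher and 17 lower (median -1.16), and 6 and 5 of 22 without VSX1 or OTX2 (median 0.23). NECTIN3 and CNTN1, adhesion proteins, were higher in both versions, CNTN1 at 360.5 ± 33.9 CPM against 91.6 ± 6.8 CPM. JAM3, a junctional adhesion molecule, and DSCAM, a neurite-spacing receptor, were lower in both, DSCAM at 21.4 ± 10.5 CPM against 105 ± 5.91 CPM. Cadherin genes counted 6 higher and 7 lower of 20, and 7 and 1 of 11 without VSX1 or OTX2, with CDH18 at 156 ± 16.8 CPM against 14 ± 3.26 CPM.

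Of 31 synaptic organizer genes 7 were higher and 7 lower, and of 22 tested without VSX1 or OTX2 9 and 5. The shares over all genes were 8.44% higher and 12.4% lower, and 7.93% and 7.4% without VSX1 or OTX2. Extracellular matrix genes had 7 higher and 10 lower of 27, and 7 and 6 of 21 in the restricted cells. Neurofilament, microtubule and axonal genes had 6 higher and 9 lower of 27, and 3 and 4 of 20. Synaptic vesicle and exocytosis genes had 1 higher (SYN3) and 9 lower of 24. In the restricted cells 3 of 17 were lower, SYN3 was not called and SYT1, a calcium sensor of vesicle release, was higher. Sodium, calcium and HCN channel genes had 2 higher and 5 lower of 18, but 3 higher (CACNA1C, CACNA1G and SCN3A) and 1 lower (CACNB2) of 12 in the restricted cells. No cytoplasmic ribosomal protein gene of 58 tested was called in either direction, and 2 of 13 immediate early and stress genes, FOS and JUN, were lower, of which JUN was not tested in the restricted cells. Scaling by library totals alone moved the median of all genes from -0.01 to -0.15 on the log2 scale, so small list medians turned sign, among them synaptic organizers from 0.03 to -0.11.

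**Figure D3:**
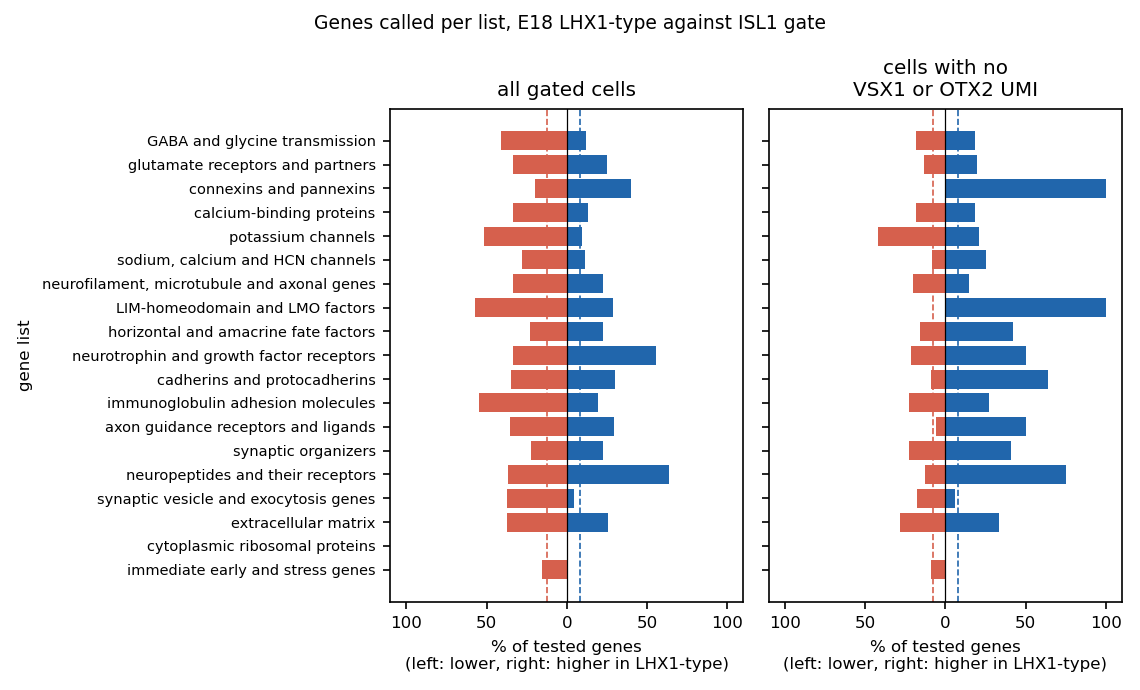
Share of tested genes called at least 2-fold higher (right) or lower (left) in LHX1-type cells than in the ISL1 gate, for 19 gene lists, over all gated cells and over cells with no VSX1 or OTX2 UMI. Dashed lines mark the share among all genes tested (8.44% and 12.4% on the left panel, 7.93% and 7.4% on the right), and some lists hold few tested genes on the right, connexins and pannexins only 1.

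Markers of other cell types were read in the LHX1-type cells beside these results. The Muller glia list (9 genes, all with at least 1 UMI) summed to 2854 to 4089 CPM in LHX1-type cells and to 1472 to 1692 CPM in the ISL1 gate. VIM, the intermediate filament vimentin, made up most of it at 2576 ± 238 CPM against 433 ± 25.9 CPM, and was called higher. Among LHX1-type cells, amacrine markers summed to 2325 to 2461 CPM with CHAT at 0, photoreceptor markers to 117 to 264 CPM with GUCA1A, GUCA1B and OPN1SW at 0, and oligodendrocyte markers to 8.58 to 39.7 CPM. MBP, the myelin basic protein gene, was at 11.9 ± 6.87 CPM in LHX1-type cells and at 253 ± 40.6 CPM in the ISL1 gate. Oligodendrocyte markers summed to 291 to 380 CPM in the whole ISL1 gate and to 458 to 638 CPM within its horizontal cell-like clusters. In cells without VSX1 or OTX2 the ISL1 gate had 476 to 674 CPM, and MBP was called lower in LHX1-type cells (log2 difference -6.37). The part of these markers in the results was not tested.

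Between E12 and E18, GAD1, the calcium buffer gene CALB2 and the receptor genes RTN4R and RET rose in LHX1-type cells, while PAX6, MAP1B and 34 of 58 ribosomal protein genes fell. The same rule found 810 cells at E12, of which 94.3% lay in a horizontal cell-like cluster. Of 5969 genes tested without a block for replicate number, 691 rose at least 2-fold (11.6%) and 683 fell (11.4%), 23% in either direction. Libraries of the stages did not overlap for 26.5% of genes on the higher side and 19.7% on the lower. LHX1 itself, a rule gene and not tested, was at 1140.0 ± 67.7 CPM at E12 and 1209 ± 91.1 CPM at E18, and ONECUT1 was at 441 ± 53.2 CPM and 1798 ± 222 CPM. Median depth was 1524 UMIs per cell at E12, and 15.1% of the E12 cells were scored as doublets.

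SLC35F4, a member of a solute carrier family, had no UMI at E12 and stood at 125, 127, 120.2 and 109 CPM at E18, at least 54.2-fold higher with the limit of 3 counts over the 4 libraries. RTN4R measured 3.32, 5.27, 0 and 2.97 CPM at E12 and 406, 419.6, 339 and 395 CPM at E18 (log2 change 6.80, SE 0.27, adjusted p = 1.53e-43). TM4SF1a, a tetraspanin-like membrane protein gene, measured 6.64, 2.63, 6.03 and 0 CPM and 387, 441, 461 and 532 CPM (log2 change 6.73, SE 0.25, adjusted p = 2.11e-45). No library of one stage reached those of the other for these genes. KCNJ5 had 2 UMIs at E12 and 256 at E18, a ratio of 90.9 with an interval of 24.9 to 754. RASD1, a Ras-related gene induced by glucocorticoids in mammals, went from 1 to 234 UMIs (166, 29.5 to 6589), ADAMTS17 from 3 to 436 (103, 35.1 to 502), PACSIN3 from 2 to 227 (80.6, 22.1 to 669) and GRIN2C from 2 to 202 (71.7, 19.6 to 596), each ratio with its 95% counting interval in parentheses.

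Genes higher in LHX1-type cells than in the ISL1 gate at E18 included some that rose from E12 and some whose change was not called. TNR was at 2429.8 ± 142 CPM at E12 and 3058 ± 166 CPM at E18, short of a 2-fold change (log2 change 0.23). IPCEF1 measured 36.5, 36.9, 48.2 and 47.5 CPM at E12 and rose to 1135, 1405, 1232 and 1369 CPM (log2 change 4.82, SE 0.12, adjusted p = 2.43e-61). C1QL4 rose from 8.19 ± 4.46 CPM to 433 ± 16.8 CPM (log2 change 5.58, SE 0.21, adjusted p = 1.05e-44). RET rose from 95.4 ± 13.5 CPM to 285 ± 25.8 CPM (log2 change 1.47, SE 0.14, adjusted p = 3.19e-17), with its co-receptors GFRA1 (log2 change 1.81) and GFRA4 (log2 change 2.14).

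GAD1 stood at 189, 189.7, 187 and 189.9 CPM at E12 and at 1965, 2159, 2099 and 2184 CPM at E18 (log2 change 3.37, SE 0.08, adjusted p = 8.83e-65). CALB2 rose from 143 ± 20.3 CPM to 4521 ± 205 CPM (log2 change 4.88, SE 0.07, adjusted p = 1.45e-80), and PCP4 from 107 ± 21.8 CPM to 1975 ± 116 CPM (log2 change 4.11, SE 0.09, adjusted p = 2.71e-66). OXT stood at 2364, 2421, 2390.1 and 2569 CPM at E12 and 393, 468, 445 and 469.9 CPM at E18 (log2 change -2.56, SE 0.06, adjusted p = 7.4e-63), the 1 gene that fell of 7 tested on the neuropeptide and receptor list. PCP4, PRLH, TAC3 and OPRM1 rose, and 2 were not called, where 11.6% of all genes tested rose and 11.4% fell.

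HINTW, a gene of the W chromosome, had no UMI at E18 in LHX1-type cells or in any other E18 barcode, and stood at 777, 759, 874 and 573 CPM at E12, at least 472-fold lower at E18. It belongs to the chromosome W difference between the stages given above. Of the other named genes that fell, TFAP2D, an AP-2 factor, went from 114 UMIs to 2, a ratio of 80.3 with an interval of 21.7 to 671. CHGB, chromogranin B, fell from 249.6 ± 38.2 CPM to 5.24 ± 1.05 CPM (log2 change -5.58, SE 0.25, adjusted p = 3.96e-39). GBX2, BCL11B and POU3F3, transcription factors of neuronal development, fell from 71.1 ± 12.1 CPM to 2.63 ± 2.71 CPM, from 79.1 ± 10.8 CPM to 3.67 ± 3.66 CPM and from 53.8 ± 10.7 CPM to 2.69 ± 2.08 CPM. PHF21B fell from 51.3 ± 12.6 CPM to 2.59 ± 3.07 CPM and ISLR2 from 231 ± 9.94 CPM to 13.1 ± 5.26 CPM.

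Of 22 horizontal and amacrine fate factors tested between the stages, 12 fell and 2 (NFIA and TSHZ3) rose, with a median log2 change of -1.18 against -0.01 over all genes. Of all genes tested, 11.4% fell and 11.6% rose. PAX6, the eye-field factor kept by amacrine, horizontal and ganglion cells, fell from 1094 ± 55.7 CPM to 418 ± 21.6 CPM (log2 change -1.49, SE 0.07, adjusted p = 2.82e-37). TFAP2A fell from 1523 ± 260.4 CPM to 773 ± 42.8 CPM (log2 change -1.08, SE 0.07, adjusted p = 1.6e-28), though it remained above the ISL1 gate at E18. PROX1 was at 1288, 1151, 1085 and 1187 CPM at E12 and 1681, 1748, 1610.4 and 1893 CPM at E18, without overlap but short of a 2-fold change (log2 change 0.46, SE 0.06, adjusted p = 1.11e-11).

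Of 58 cytoplasmic ribosomal protein genes, 34 fell at least 2-fold and 1, RPL14, rose, with a median log2 change of -1.07. RPL9 went from 2178 ± 107 CPM to 775 ± 52.2 CPM (log2 change -1.59, SE 0.06, adjusted p = 5.63e-47). Scaled by library totals alone, 27 fell and the median was -0.97. Axonal and cytoskeletal genes included 10 that fell and 4 that rose of 24. MAP1B, a microtubule protein of growing axons, fell from 259.9 ± 39.9 CPM to 23.2 ± 18 CPM (log2 change -3.55, SE 0.20, adjusted p = 1.17e-31), and the growth-cone gene GAP43 from 83.5 ± 21.8 CPM to 7.77 ± 5.29 CPM (log2 change -3.47, SE 0.32, adjusted p = 4.24e-17). TUBA4A, an alpha-tubulin of mature neurons, rose from 5.13 ± 2.52 CPM to 180.4 ± 14.3 CPM. Axon guidance genes included 12 that fell and 5 that rose of 27. The shares over all genes tested were 11.4% that fell and 11.6% that rose.

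The list counts here stand beside 11.6% of all genes tested that rose and 11.4% that fell, and several are near those shares. In the other lists, 3 of 10 GABA and glycine genes (GAD1, GLRB and GLRA3) and 4 of 11 calcium-binding protein genes rose, and no gene of either list fell. Glutamate receptor genes had 4 that rose and 5 that fell of 18, potassium channels 6 and 6 of 17, and extracellular matrix genes 8 and 4 of 21. Trophic factor genes had 4 that rose (IGF2, GFRA4, GFRA1 and RET) and 3 that fell of 12. Of 20 synaptic vesicle genes 3 rose and SYT4 fell.

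Markers of other cells also moved with stage. The bipolar list summed to 1016 to 1148 CPM in E12 LHX1-type cells and 215 to 308 CPM at E18, the amacrine list to 3987 to 4794 CPM and 2325 to 2461 CPM, and the Muller glia list to 495 to 604 CPM and 2854 to 4089 CPM. All 4 tested bipolar markers and 7 of 9 amacrine markers fell, and 5 of 7 Muller glia markers rose, beside 11.4% and 11.6% of all genes tested. VIM rose from 129.8 ± 9.08 CPM to 2576 ± 238 CPM and GLUL, glutamine synthetase, from 11.8 ± 2.71 CPM to 419.6 ± 187 CPM. At E18 GLUL was at 9358 CPM in 16 member cells, 87.5% of which were scored as doublets, and between 57.6 and 92.2 CPM in the other subclusters. VIM was not confined in this way, at 5584 CPM in those 16 cells and between 1368 and 4419 CPM in the other subclusters. In subclusters 1, 2, 3 and 5, with no cell scored as a doublet, VIM was at 2563, 3295, 1453 and 4419 CPM. The part of other cell types in the stage comparison was not tested.

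**Figure D4:**
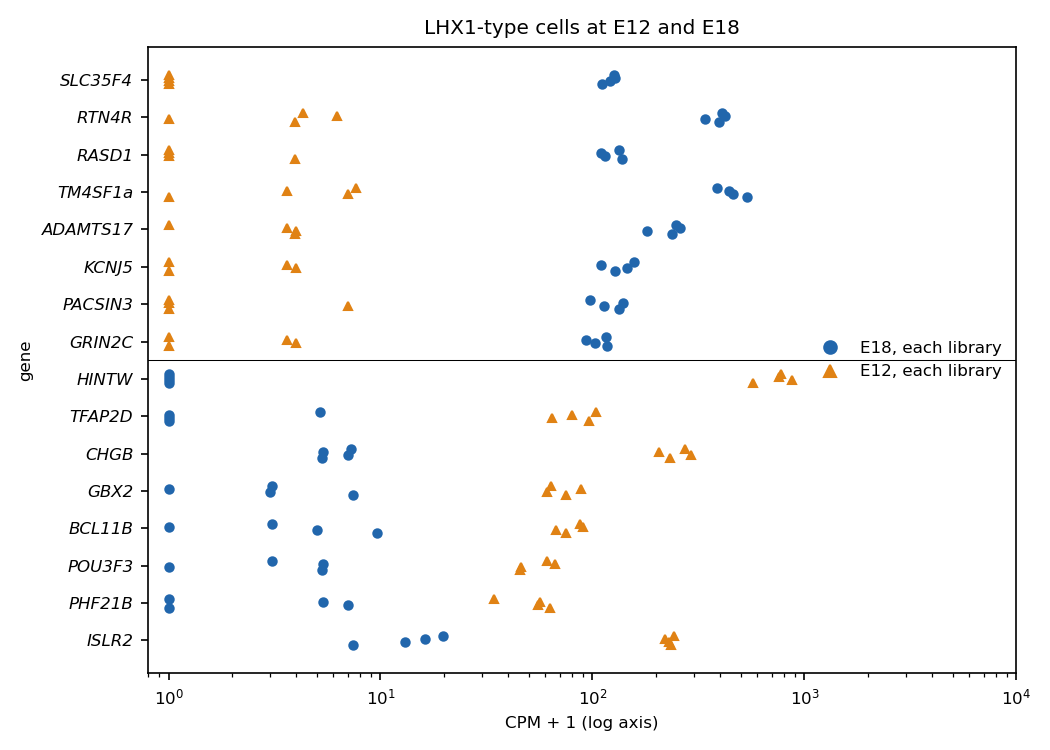
Level of the 16 genes with the largest changes in LHX1-type cells, as CPM + 1 on a log axis, in each of the 4 E12 libraries (triangles) and 4 E18 libraries (circles). The 8 genes above the line rose from at most 6.64 CPM per library at E12, and HINTW, with 573 to 874 CPM at E12, had no UMI at E18.

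LHX1-type cells made up 2.89%, 2.81%, 3.13% and 3.03% of the barcodes of the E18 libraries and 1.43% ± 0.042 (SD, n = 4) of those of the E12 libraries. The difference of 1.54 percentage points had p = 0.0286 in a two-sided exact permutation test over 4 against 4 libraries, the smallest p that this test allows. With every barcode thinned to 1000 UMIs, the shares were 2.14% and 0.918%, after 2426 shallower E18 barcodes were left out. Each share counts cells that meet the rule, and ONECUT1 differed between the stages. In the cluster that held most E12 members it was at 373 CPM, and 36.4% of barcodes were members. In that of E18 it was at 1799 CPM, with 72.6%. Thinning evens out depth but not such levels, so tests of shares cannot tell cell number from detection of the rule's genes. Among cells with exactly one of LHX1 and ISL1, the LHX1-type share was 30.3% ± 0.61 at E18 and 50.3% ± 1.84 at E12 (p = 0.0286, exact permutation test). These shares rest on the mixed ISL1 gate, of which 16.3% lay in horizontal cell-like clusters at E12. Within those clusters the shares were 48.4% ± 1.08 and 85.4% ± 2.77. The only such cluster at E12 was led by TNR, OXT and LHX1, and held 764 LHX1-type and 131 ISL1-gate cells. Keeping an LHX1-led cluster favours LHX1-type cells, so these restricted shares cannot show how the balance changed. In the ganglion cell-enriched libraries, whose labels differ on the stage, 0 of 9159 barcodes met the rule, which allows a share of up to 0.0328% from counting error alone, and the Thy-1 selection bears on that share.

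The LHX1-type cells were not uniform. Clustered among themselves they fell into 7 subclusters, each present in all 4 E18 libraries, with genes that defined them described and not tested. Subclusters 1, 2 and 3 held 284, 238 and 205 cells and differed in a graded set of genes. IPCEF1 was at 2044 CPM in subcluster 3, 1537 in subcluster 1 and 846 in subcluster 2, and GAD1 followed the same order at 3113, 2479 and 1532 CPM. CALB2 did as well, at 6849, 6014 and 1886 CPM. CNR1, the cannabinoid receptor, and CHRDL1, a BMP antagonist, ran opposite, at 369 and 209.8 CPM in subcluster 2 and at 4.71 and 2.35 CPM in subcluster 3. MLPH, which encodes melanophilin, and PRLH, a peptide hormone precursor, were at 283 and 327 CPM in subcluster 3 and at 6.84 and 9.12 CPM in subcluster 2.

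Subcluster 5 held 56 cells, none scored as a doublet, 6.11% to 6.60% of the LHX1-type cells of each library, and all 56 lay in the cluster of the other members. It had LHX1 at 1678 CPM, TNR at 7826 CPM and PROX1 at 2175 CPM, with IPCEF1 at 238 CPM and GAD1 at 387 CPM. The library values of GAD1 there were 319 to 488 CPM, below the 1451 to 1650.2 CPM of subcluster 2. OXT was at 2681 CPM in subcluster 5 (2062 to 3400.3 over libraries) and at 261, 524 and 228 CPM in subclusters 1 to 3. LRRTM4, a synaptic organizer, was at 377 CPM and FOXO6, a forkhead factor, at 199 CPM, while MLPH and PRLH had no UMI. Median depth was 1742.5 UMIs in subcluster 5 and 1734.5 in subcluster 2.

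The other 3 subclusters carried genes of other cell types. Subcluster 4 (66 cells, 42.4% scored as doublets) had OTX2 at 823 CPM, against at most 27.9 CPM in any other subcluster. Subcluster 6 (25 cells, 68% scored as doublets) had MEIS2, a homeobox gene of amacrine cells, at 806 CPM, and subcluster 7 (16 cells) was led by GLUL and SLC1A3 of Muller glia. In replicate 4 a single barcode of subcluster 3 held 1419 of the 1421 haemoglobin UMIs found in LHX1-type cells, and HBA1, HBBA and HBM led that subcluster's gene list.

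**Figure D5:**
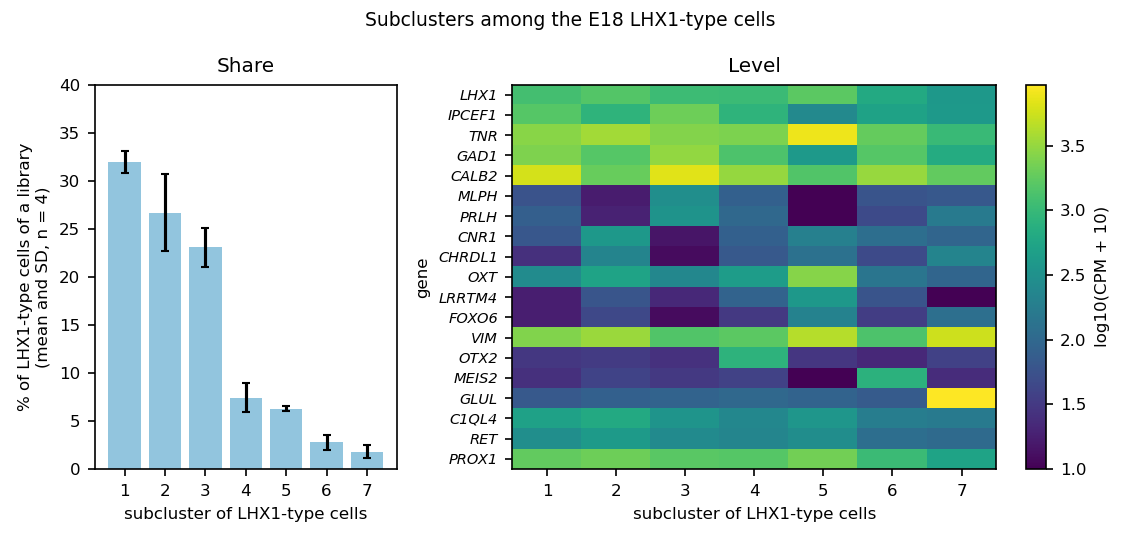
Share of LHX1-type cells of a library in each of 7 subclusters (left, mean and SD over 4 E18 libraries) and pooled level of 19 genes as log10(CPM + 10) (right). Subcluster 5 combines high TNR (7826 CPM) and OXT (2681 CPM) with low IPCEF1 (238 CPM) and GAD1 (387 CPM).

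LHX1 was at 1062 CPM in the cluster of the members, 79.9 CPM in the cluster led by PDE6G and at most 24.5 CPM elsewhere. Ranks over the 66 clusters of all E18 barcodes thus mostly order low LHX1 counts. They cannot show which genes share its peak. The highest Spearman correlation among 8766 genes was 0.56 for BMS1, followed by 0.55 for FGF19, given as a description over clusters that share libraries. BMS1 was at 47.6 CPM in the cluster of the members and at a median of 42.0 CPM outside horizontal cell-like clusters. FGF19, a fibroblast growth factor, was at 1116 CPM in the cluster of the members, 349 CPM in the ISL1 cluster and at a median of 6.18 CPM in the others.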

How the data were processed

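The deposited values were raw UMI counts per gene and barcode, which the authors made with Cell Ranger 2.1.0 against GRCg6a, per the submitters' processing notes. The tables held 23726 genes. Rows and barcodes were used as deposited.

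Gated cells were summed by library. Genes passing filterByExpr were tested with edgeR 4.0.16 (R 4.3.3), using TMM scaling, quasi-likelihood F tests and Benjamini-Hochberg adjustment. A call needed an adjusted p under 0.05 and a 2-fold difference. The 8 rule genes counted towards library size and were not tested. Library was a term between the gates, whose cells came from the same libraries, though deviations of the 2 gates in a library correlated at only 0.0046 to 0.064. Between the stages it was not a term, and same-numbered libraries correlated at -0.0077 to 0.044.

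Each stage was clustered with leidenalg 0.10.2 (2000 variable genes, 40 components, 20 neighbours, resolution 1). Doublets were scored against simulated ones, at 0.8% per 1000 barcodes. Exact permutation tests used scipy 1.17.1. Sums held 457559 to 499258 UMIs per library for LHX1-type cells and 953713 to 1009087 for the ISL1 gate. Counting intervals (95%) and limits cover counting error only.

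Named genes were those with a symbol, called, without overlap between libraries and at 50 CPM or more in the higher group. The 12 largest each way were taken between gates and the 8 largest between stages. For the difference between gates in the stage change the rule was the 5 largest each way among called genes (adjusted p alone) at 50 CPM in any group. PROX1 and members of the gene lists were added, called members first, and some genes are not reported here. Members, rule and lists were chosen with earlier results of these data known.

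On simulated counts for the comparison of gates (8049 genes, 200 changed), all genes changed by 3 log2 units and 93.3% of those changed by 1.5 were recovered, with 2 false calls. Between the stages 100% and 94.5% were recovered, with 1 false call. For the difference between gates in the stage change it was 99.0% and 74.7%, with 2 false calls. The simulated counts had the same spread setting for every gene, no library effect and no mixture of cell types. Alternatives were DESeq2 1.42.0, library totals without TMM, no filter on low counts, stricter gates, doublets left out, 1000 to 3000 UMIs per cell, horizontal cell-like clusters only, the library term, thinning to 1000 UMIs for the shares, and each library left out. Restriction to cells with no VSX1 or OTX2 UMI, to horizontal cell-like clusters without doublets, and of the shares to those clusters was chosen after seeing the data. Counts on the ganglion cell-enriched libraries were used only for the share of cells meeting the rule.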

Additional observations from a re-analysis of the deposited data

Results flagged for a closer look

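The change from E12 to E18 was compared between LHX1-type cells and the ISL1 gate by an interaction term, and 10 genes named by rule differed. A call here needed an adjusted p under 0.05 with no fold threshold, and 811 of 7586 genes (10.7%) changed more towards higher levels in LHX1-type cells and 874 (11.5%) towards lower levels. The E12 ISL1 gate held 16.3% cells of horizontal cell-like clusters and the E18 gate 44.5%, and the part of this shift in the differences was not tested. Chromosome W genes also differed between the stages.

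The differences are in log2 units, LHX1-type change minus ISL1-gate change, from edgeR. DLL4, a Notch ligand, had 6.83, SE 0.67, adjusted p = 7.96e-13. MCTP1, a C2-domain membrane protein gene, had 5.49, SE 0.53, adjusted p = 2.86e-13. TRIM27.2 had 5.25, SE 1.49, adjusted p = 0.00592. PACSIN3, an endocytosis adaptor gene, had 5.20, SE 1.18, adjusted p = 0.000496, and RTN4R, the Nogo receptor gene, had 4.92, SE 0.74, adjusted p = 2.1e-07. All 5 went up in LHX1-type cells. TRIM27.2, PACSIN3 and RTN4R also went up in the ISL1 gate, by less. DLL4 and MCTP1 went down in the ISL1 gate, from 17.2 to 6.41 CPM and from 20.3 to 5.6 CPM. Counts in E12 LHX1-type cells were 4 UMIs for DLL4, 13 for MCTP1, 2 for TRIM27.2, 2 for PACSIN3 and 4 for RTN4R. In the E12 ISL1 gate TRIM27.2 had 3 UMIs and PACSIN3 had 6. Within horizontal cell-like clusters DLL4 had 1.74, TRIM27.2 2.53 and PACSIN3 5.54, with adjusted p of 0.948, 0.967 and 0.14, so these 3 calls were lost there. The E12 ISL1 gate held only 27 to 41 cells per library in that setting, all from the cluster led by TNR, OXT and LHX1. With so few cells from an LHX1-led cluster, the lost calls cannot show whether the differences hold among horizontal cells. With at least 3 ONECUT UMIs, TRIM27.2 had 7.23 (adjusted p = 0.0523), a larger difference than over all gated cells, and PACSIN3 had 3.77 (adjusted p = 0.287), so both lost their calls there as well.

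The 5 genes named in the other direction included DCLK3 (-6.37, SE 0.61, adjusted p = 2.29e-13), CPNE8 (-5.79, SE 1.04, adjusted p = 9.69e-06) and STRA6 (-4.33, SE 1.45, adjusted p = 0.0226). The others were the receptor phosphatase genes PTPRK (-4.57, SE 0.41, adjusted p = 3.29e-14) and PTPRM (-4.21, SE 0.53, adjusted p = 1.67e-09). All 5 went down in LHX1-type cells and up in the ISL1 gate. DCLK3 went from 20.4 to 3.79 CPM in LHX1-type cells and from 22.1 to 356 CPM in the ISL1 gate. In LHX1-type cells CPNE8 had 8 UMIs at E12 and 5 at E18, and STRA6 had 3 and 1. STRA6 lost its call under 7 alternatives. Its difference was -3.85 without E18 replicate 1 (adjusted p = 0.0572), -4.71 without E12 replicate 2 (0.0515), -4.41 without E12 replicate 3 (0.0623) and -4.05 without E12 replicate 4 (0.0848). With at least 2 UMIs of LHX1 or ISL1 it was -2.97 (0.384), in cells of 1000 to 3000 UMIs -3.35 (0.154) and without doublets -3.90 (0.0905). Of 68 groups of 4 libraries screened for a single library far from the others, none was flagged, where chance would flag about 5%.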

How the results depend on the processing

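Between the gates, the higher and lower counts (681 and 998) fell to 450 and 420 in cells without VSX1 or OTX2, and the lower count to 465 in horizontal cell-like clusters and 424 there without doublets. These restrictions also left fewer cells and genes to test. Between the stages, the counts (691 and 683) were 1267 and 1219 without the filter on low counts. For the difference between gates in the stage change (811 and 874), DESeq2 gave 424 and 499, horizontal cell-like clusters 331 and 513, and at least 3 ONECUT UMIs or 2 UMIs of LHX1 or ISL1 gave 510 and 534 higher genes; the cause was not tested. Leaving out 1 library gave 700 to 716 and 1006 to 1042 between gates, 684 to 826 and 747 to 777 between stages, and 626 to 769 and 739 to 827 for the difference. The share differences stayed at 1.48 to 1.59 and -20.5 to -19.2 percentage points with p = 0.0571, the smallest an exact permutation test of 3 against 4 allows. Without TMM the gates gave 560 and 1124.

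PROX1, not called between the gates, ranged from -0.099 to 0.034 with 1 E18 library left out, turning sign without replicate 2 and without replicate 3. Of the values of named genes under the alternatives, PROX1 included, 367 of 369 between gates, 284 of 284 between stages and 158 of 170 for the difference kept their direction and call. Genes other than PROX1 were named for large differences, which favours keeping their calls. HPRTL and CALB1 were not tested between gates within horizontal cell-like clusters or without VSX1 or OTX2, so those settings are not counted for them. The pairing by library changed little: without the replicate block the gates gave 683 and 995 and the difference 790 and 870, and with it the stages gave 691 and 682. Depth limits genes of low level: medians were 2022.5 UMIs in LHX1-type cells and 1725 in the ISL1 gate, so 0 UMIs does not show absence.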

Other observations

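Haemoglobin transcripts (HBA1, HBBA and HBM) were read in both gates at E18. Replicates 1, 2 and 3 had none in LHX1-type cells, and replicate 4 had 1421 UMIs, 1419 of them in 1 barcode. The ISL1 gate of replicate 4 had 1.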
